A study of Mus musculus with 6 samples.

Results

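The 9 genes described here encode the proteins that carry iron into cells, store it, release it and sense it: Tfrc, Slc11a2, Fth1, Ftl1, Slc40a1, Cp, Heph, Ireb2 and Aco1. They were taken by symbol, matched through Ensembl gene IDs without version, and all 9 were listed in both deposited tables, of 12666 and 13606 genes. Bulk RNA-seq of total RNA was made from whole kidney of wild-type (WT) mice in a study of natural aging. The libraries 24M_1, 24M_2, 24M_3 and 24M_4 carried the age label 24M, and 2M_1 and 2M_2 carried the age label 2M. The labels name no strain and no sex. They also do not tie the libraries to separate animals, and every p-value here reflects the spread between libraries, which may be technical. Levels are FPKM, a read density scaled to transcript length and library size, and can be compared between genes because they are per length.

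Iron reaches most cells bound to transferrin, which is taken up through the transferrin receptor, and it leaves the endosome through the divalent metal transporter. Surplus iron is held in ferritin shells made of heavy and light chains, and ferroportin, the product of Slc40a1, is the known exporter of iron from cells. In the kidney, proximal tubule cells take back filtered iron. Iron regulatory proteins bind a stem-loop in several of these transcripts, the iron-responsive element (IRE), when cells are short of iron. Binding in the 5′ UTR blocks translation, and binding in the 3′ UTR protects the transcript from decay.

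The IRE is shown first because it divides the 9 transcripts by where the element lies. The GENCODE vM21 transcripts (GRCm38, the same assembly as mm10) were searched on the sense strand for a core made of a bulged C, 5 stem bases, a loop CAGTGN and 5 bases able to pair with the stem, G with U included. The loop is in capitals, with 6 bases shown outside the core on each side, in DNA letters. The 5′ UTRs of Fth1, Ftl1 and Slc40a1 hold 1 such core each, and the 3′ UTR of Tfrc holds 4.
Fth1, chr19:9982732-9982760, plus strand: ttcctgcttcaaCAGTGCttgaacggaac
Ftl1, chr7:45459779-45459807, minus strand: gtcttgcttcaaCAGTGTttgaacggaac
Slc40a1, chr1:45925465-45925493, minus strand: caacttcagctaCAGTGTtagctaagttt
Tfrc, chr16:32631219-32631247, plus strand: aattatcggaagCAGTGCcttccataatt
Tfrc, chr16:32631598-32631626, plus strand: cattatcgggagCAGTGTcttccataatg
Tfrc, chr16:32631663-32631691, plus strand: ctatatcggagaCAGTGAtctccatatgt
Tfrc, chr16:32631710-32631738, plus strand: aattatcgggaaCAGTGTttcccataatt
With the loop written CAGAGN, the 3′ UTR of Tfrc holds 1 more core, shown because it lies beside the other 4.
Tfrc, chr16:32631160-32631188, plus strand: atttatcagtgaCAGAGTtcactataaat
The core with CAGTGN was found in a UTR of 160 of 21741 protein-coding genes (0.736%) and of 4 of the 9 iron genes. The core with CAGAGN was found in 161 genes (0.741%), among them Tfrc and Cp, whose match lies in the 3′ UTR. A match is a description of these letters, and no match in the other transcripts says only that this pattern is not there. The alternative 3′ end of Slc11a2 is known to carry an IRE with an extra base in the stem, which this pattern does not cover, and gene-level values do not separate the Slc11a2 isoforms.

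Changes with age were tested within the table that holds 24M_1, 24M_2, 2M_1 and 2M_2. The libraries 24M_3 and 24M_4 stand in a table made separately, so their levels are set beside the others and enter no test. The FPKM sums were 290590 and 293057 in 24M_1 and 24M_2, 302628 and 335723 in 24M_3 and 24M_4, and 286198 and 295286 in 2M_1 and 2M_2, and read depth is unknown. Markers of the proximal tubule were abundant in all 6 libraries. The 8 of them summed to 1914 to 1925 FPKM in 24M_1 and 24M_2, 2065 to 2485 in 24M_3 and 24M_4, and 1797 to 1914 in 2M. Library 24M_3 stood apart by its macrophage markers, which summed to 848 FPKM, against 122 in 24M_4, 74.2 to 75.2 in 24M_2 and 24M_1, and 56.2 to 65.1 in 2M.

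The iron genes did not pass the test of change with age. By limma with Benjamini-Hochberg adjustment over 11437 genes, 0 of the 9 had an adjusted p below 0.05, while 1.57% of all genes tested did. At an unadjusted p below 0.05 there were 3 of the 9, Ftl1, Aco1 and Heph, all lower in 24M, against 16.9% of all genes tested. The log2 change was above 0 for 4 genes and below 0 for 5. Its median was -0.12 for the 9 genes and -0.02 for all genes tested. The median size of the change, sign left aside, was 0.14 for the 9 genes and 0.12 for all genes tested. Levels of 24M_1 and 24M_2 lay below both 2M libraries for 4 genes, Ftl1, Aco1, Heph and Ireb2, where 29.6% of all genes tested did so. They lay above both 2M libraries for Cp, where 20.8% of all genes did so. In tissue, fewer cells of a type and less RNA per cell cannot be told apart.

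**Figure D1:**
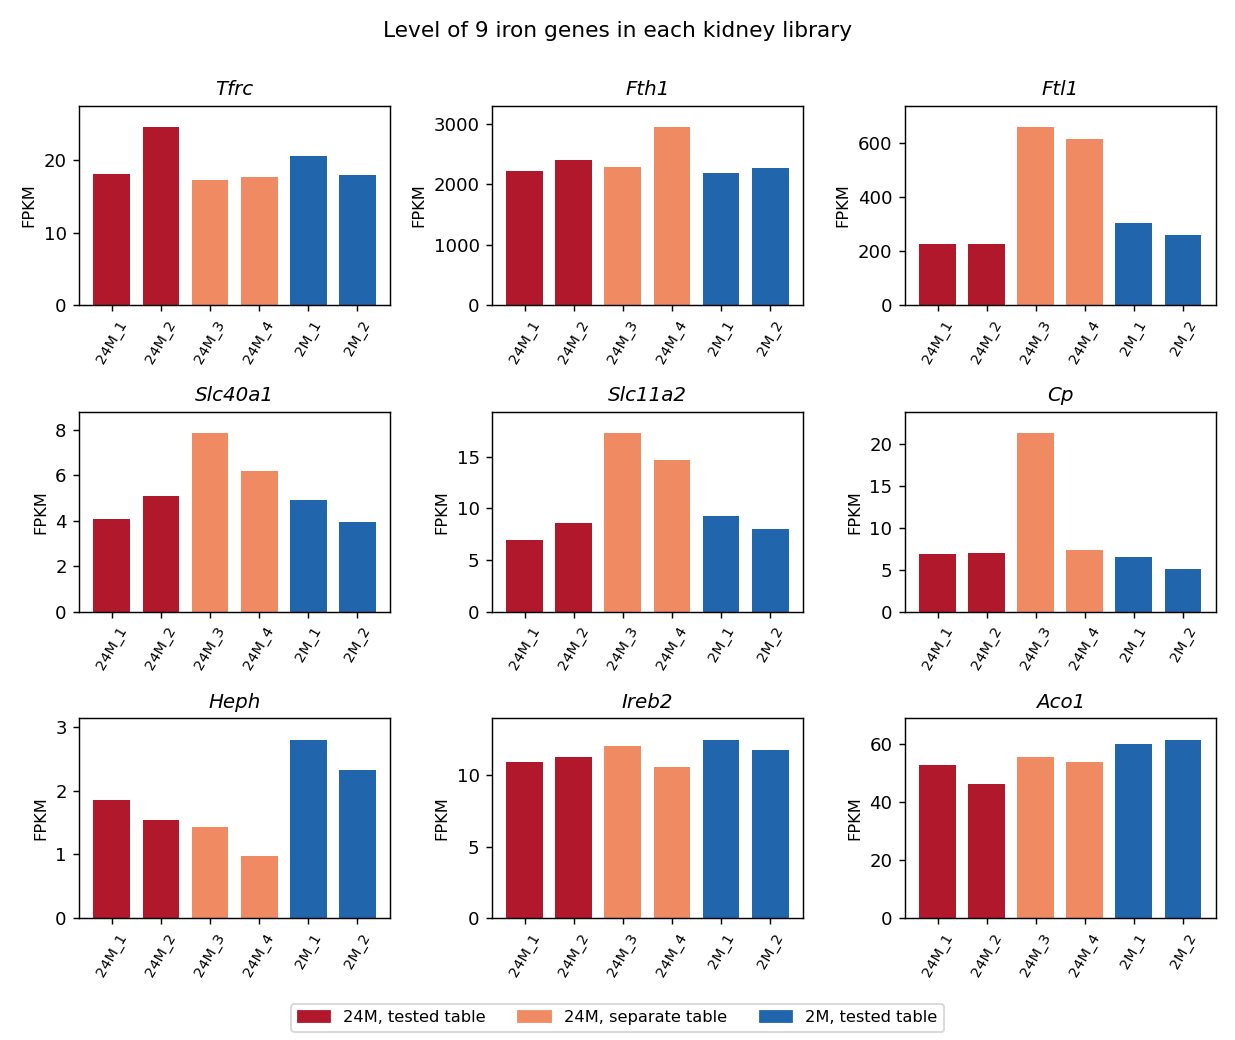
Bars give the FPKM of each of the 9 iron genes in each library, with a separate vertical axis from 0 for each gene; 24M libraries of the tested table are dark red, 24M libraries of the separate table orange and 2M libraries blue. Ftl1 and Slc11a2 stand higher in both orange bars than in every other library, Cp stands at 21.3 FPKM in 24M_3, and Heph lies below both 2M libraries in all 4 24M libraries.

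Per length, the 9 transcripts spanned levels from 0.977 FPKM (Heph in 24M_4) to 2944 FPKM (Fth1 in 24M_4) and kept nearly the same order at both ages. In 24M_1 and 24M_2 the order of mean levels was Fth1, Ftl1, Aco1, Tfrc, Ireb2, Slc11a2, Cp, Slc40a1 and Heph. Within these 2 libraries, the ranges of neighbours overlapped for Slc11a2 and Cp and for no other pair. In 2M the order was the same, and no neighbouring ranges overlapped. In 24M_3 and 24M_4 the order differed in that Slc11a2 and Cp stood above Ireb2, and the ranges of Slc11a2 and Cp and of Cp and Ireb2 overlapped. Fth1 was among the most abundant transcripts of the kidney, at rank 13 of the genes listed in 24M_1 and 24M_2, 12 in 24M_3, 11 in 24M_4 and 13 in each 2M library.

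Among the uptake genes, Tfrc (ENSMUSG00000022797, chromosome 16, 32608920 to 32632794, plus strand), the transferrin receptor, had 18.1 and 24.5 FPKM in 24M_1 and 24M_2, 17.3 and 17.6 in 24M_3 and 24M_4, and 20.6 and 17.9 in 2M_1 and 2M_2. Library 24M_2 was the highest of the 6 and the ages overlapped. The log2 change on the log2(FPKM + 1) scale was 0.13 ± 0.16 (SE; 95% interval -0.28 to 0.53; limma adjusted p = 0.739). Its direction rests on 24M_2: without that library the change was -0.08. Slc11a2 (ENSMUSG00000023030, chromosome 15, 100387898 to 100425072, minus strand), the divalent metal transporter that moves iron out of endosomes, had 6.95 and 8.60 FPKM in 24M_1 and 24M_2, against 9.26 and 8.01 in 2M. These ranges overlapped, with a log2 change of -0.14 ± 0.13 (95% interval -0.46 to 0.18; limma adjusted p = 0.637). Without 24M_1 the change was -0.0019. The separate table gave 17.2 FPKM for 24M_3 and 14.7 for 24M_4, above all 4 libraries of the tested table.

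Transcripts of the ferritin heavy chain overlapped between the ages in the tested table. Fth1 (ENSMUSG00000024661, chromosome 19, 9980598 to 9985098, plus strand), whose product oxidizes the iron that enters the shell, had 2212 and 2401 FPKM in 24M_1 and 24M_2, and 2194 and 2268 in 2M. Their means were 2306 ± 134 FPKM for 24M and 2231 ± 52.7 for 2M (SD over 2 libraries each). The log2 change was 0.05 ± 0.07 (limma adjusted p = 0.767), and its 95% interval corresponds to 0.921-fold to 1.16-fold. Fth1 levels in the separate table were 2288 FPKM (24M_3) and 2944 FPKM (24M_4).

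Ftl1 (ENSMUSG00000050708, chromosome 7, 45457944 to 45459884, minus strand), the light chain that aids formation of the iron core, differed most between the tables. It had 225 FPKM in both 24M_1 and 24M_2, against 303 and 261 in 2M_1 and 2M_2, so both 24M libraries lay below both 2M libraries. The log2 change was -0.32 ± 0.08 (95% interval -0.53 to -0.11), with an unadjusted p of 0.00985 and a limma adjusted p of 0.158, which misses the threshold, and without 2M_1 the change was -0.21. In the separate table Ftl1 had 657 FPKM in 24M_3 and 613 in 24M_4, on average 2.82-fold the mean of 24M_1 and 24M_2 and 2.25-fold the mean of 2M. The libraries that carry the 24M label lay on opposite sides of 2M. Red blood cell markers (6 of 8 listed, none at 0) summed to 28.8 and 53.5 FPKM in 24M_1 and 24M_2, 206 and 173 in 24M_3 and 24M_4, and 204 and 161 in 2M, and their part in the Ftl1 values was not tested.

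The Ftl1 value is uncertain because a near copy is listed. The locus Ftl1-ps1 on chromosome 13 has a transcript that matches that of Ftl1 at 906 of 910 aligned bases (99.6%) and holds the same IRE letters, and the sources used here do not say how reads were divided between the loci. Ftl1-ps1 had 42.1 and 38.2 FPKM in 24M_1 and 24M_2, 38.7 and 53.4 in 24M_3 and 24M_4, and 32.7 and 36.2 in 2M. It lay above both 2M libraries in 24M_1 and 24M_2, the direction opposite to that of Ftl1, with a log2 change of 0.21 (limma adjusted p = 0.295). Summed, Ftl1 and Ftl1-ps1 had 267 and 263 FPKM in 24M_1 and 24M_2, 696 and 666 in 24M_3 and 24M_4, and 336 and 297 in 2M. The sum kept the pattern of Ftl1 alone: below both 2M libraries in 24M_1 and 24M_2, above them in 24M_3 and 24M_4.

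Among the export genes, ferroportin overlapped between the ages in the tested table, and hephaestin was lower in every 24M library than in either 2M library, without passing the test. Slc40a1 (ENSMUSG00000025993, chromosome 1, 45908068 to 45926523, minus strand), which encodes ferroportin, had 4.08 and 5.10 FPKM in 24M_1 and 24M_2, against 4.91 and 3.95 in 2M. The ages overlapped, with a log2 change of 0.04 ± 0.14 (95% interval -0.31 to 0.39; limma adjusted p = 0.920), and the sign turned without 24M_2 (-0.09) and without 2M_2 (-0.09). Both libraries of the separate table were higher, at 7.85 and 6.19 FPKM in 24M_3 and 24M_4.

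Heph (ENSMUSG00000031209, chromosome X, 96455359 to 96574485, plus strand) encodes hephaestin, a membrane copper oxidase that oxidizes exported iron, which transferrin then binds. It was the lowest of the 9 transcripts, with 1.86 and 1.55 FPKM in 24M_1 and 24M_2, and 2.80 and 2.33 in 2M. The mean of 24M was 66.4% of that of 2M, with a log2 change of -0.40 ± 0.13 (95% interval -0.71 to -0.09; unadjusted p = 0.0210; limma adjusted p = 0.213). The separate table listed 1.43 and 0.977 FPKM in 24M_3 and 24M_4, so all 4 24M libraries lay below both 2M libraries. Of all genes tested, 29.6% lay below both 2M libraries in 24M_1 and 24M_2, and 40.5% of 11418 did in 24M_3 and 24M_4. The shares above both were 20.8% and 32.1%. Genes on the same side in all 4 24M libraries were not counted, here or for Aco1, Bmp6, Hmox1 and Ncoa4 below. The sums of some marker lists were lower beside Heph in all 4 24M libraries, though not every marker in them was. In the collecting duct list, Hsd11b2 went the other way in the separate table. It had 51.7 and 50.1 FPKM in 24M_3 and 24M_4, against 30.4 and 32.9 in 2M. Endothelial markers (7 of 7 listed) summed to 67.8 to 74.5 FPKM in 24M_1 and 24M_2, 35.8 to 36.3 in 24M_3 and 24M_4, and 84.1 to 90.6 in 2M. Collecting duct markers (8 of 8 listed) summed to 189 to 209 FPKM in 24M_1 and 24M_2, 200.3 to 210 in 24M_3 and 24M_4, and 250.4 to 273 in 2M. Urothelial markers (8 of 8 listed) summed to 12.1 and 46.8 FPKM in 24M_1 and 24M_2, 16.0 and 14.9 in 24M_3 and 24M_4, and 89.9 and 70.6 in 2M, with the uroplakins Upk2 and Upk3a at 0 in 24M_1, 24M_3 and 24M_4. Adipocyte markers (5 of 8 listed in both tables) summed to 17.8 and 16.8 FPKM in 24M_1 and 24M_2, 8.06 and 17.7 in 24M_3 and 24M_4, and 35.3 and 43.3 in 2M, with Adipoq and Cfd at 0 in 24M_1, 24M_2 and 24M_3. Most of the adipocyte sum in 24M_1 and 24M_2 was Fabp4, at 17.3 and 16.4 FPKM, against 19.2 and 20.8 in 2M. The part of these lists in the Heph values was not tested.

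Cp (ENSMUSG00000003617, chromosome 3, 19957054 to 20009145, plus strand) encodes ceruloplasmin, the soluble relative of hephaestin. It had 6.84 and 7.01 FPKM in 24M_1 and 24M_2, against 6.56 and 5.13 in 2M, without overlap. The log2 change was 0.22 ± 0.12 (95% interval -0.09 to 0.53; limma adjusted p = 0.437), and it was 0.07 without 2M_2 and 0.37 without 2M_1. The separate table gave 21.3 FPKM for Cp in 24M_3 and 7.43 in 24M_4, so that a single library held the high value. In 24M_3 the macrophage markers (8 of 10 listed in both tables, none at 0) stood at the sum of 848 FPKM given above, and Jchain, an antibody gene of plasma cells, reached 179 FPKM, against 59.5 in 24M_4. The part of these cells in the Cp value was not tested.

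The sensors were slightly lower in 24M_1 and 24M_2, and neither passed. Aco1 (ENSMUSG00000028405, chromosome 4, 40143081 to 40198338, plus strand) encodes the cytosolic aconitase that becomes iron regulatory protein 1 when it loses its iron-sulfur cluster. It had 52.9 and 46.1 FPKM in 24M_1 and 24M_2, 55.6 and 53.7 in 24M_3 and 24M_4, and 59.8 and 61.4 in 2M. All 4 24M libraries lay below both 2M libraries. The log2 change was -0.29 ± 0.08 (95% interval -0.50 to -0.08; unadjusted p = 0.0144; limma adjusted p = 0.180), and it was -0.19 without 24M_2. Ireb2 (ENSMUSG00000032293, chromosome 9, 54863789 to 54912530, plus strand) encodes iron regulatory protein 2, which is degraded when iron is plentiful. It had 10.9 and 11.3 FPKM in 24M_1 and 24M_2, 12.1 and 10.6 in 24M_3 and 24M_4, and 12.5 and 11.8 in 2M, a log2 change of -0.12 ± 0.08 (95% interval -0.32 to 0.08; limma adjusted p = 0.515). Ireb2 varied least of the 9 between the 24M libraries, by 1.14-fold from lowest to highest, where Cp varied by 3.11-fold and Ftl1 by 2.93-fold.

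**Figure D2:**
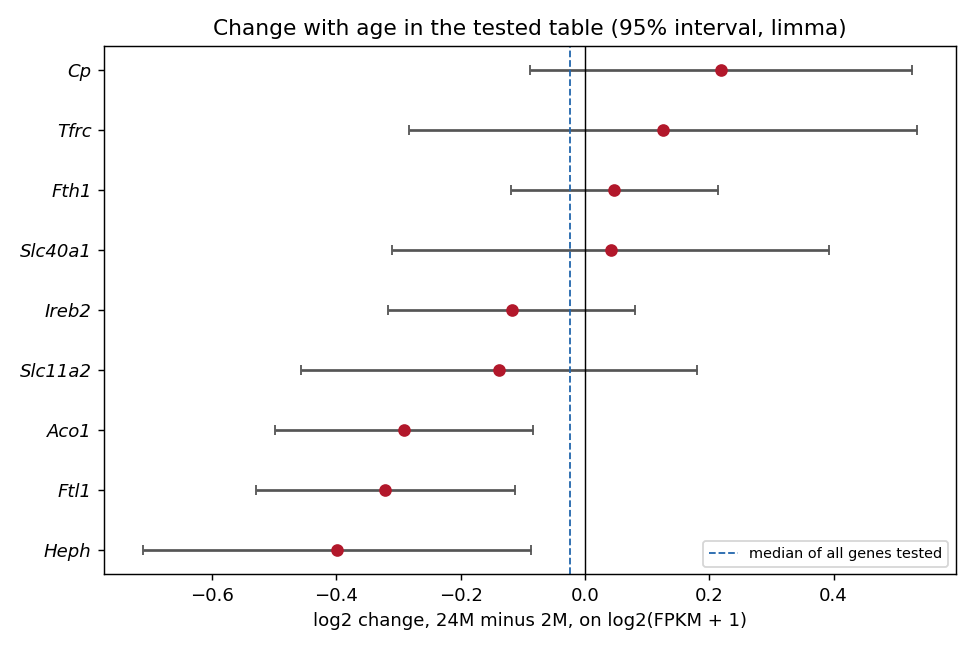
Points give the log2 change of each gene, 24M_1 and 24M_2 minus 2M_1 and 2M_2, on the log2(FPKM + 1) scale, with 95% intervals from limma as bars; the dashed line is the median of all genes tested. The intervals of Aco1, Ftl1 and Heph lie below 0 before adjustment for 11437 genes, and those of the other 6 genes include 0.

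Grouped by the place of the IRE, the transcripts with a 5′ UTR element had log2 changes of 0.05 (Fth1), -0.32 (Ftl1) and 0.04 (Slc40a1), and Tfrc, with 3′ UTR elements, had 0.13. In 24M_3 and 24M_4, from the separate table, Fth1, Ftl1 and Slc40a1 all stood above both 2M libraries, and Tfrc below both. Some margins were small: Fth1 was 2288 FPKM in 24M_3 and 2268 in 2M_2, and Tfrc was 17.6 in 24M_4 and 17.9 in 2M_2. FPKM sums were also higher in 24M_3 and 24M_4 than in 2M, and the margin of Fth1 may rest on that scaling. Of all 9 genes, 5 had higher levels in 24M_3 and 24M_4 than in either 2M library, as 32.1% of 11418 genes did, and 3 had lower levels, as 40.5% did. The mean log2 difference of 24M_3 and 24M_4 from 2M was 1.17 for Ftl1, 1.01 for Cp, 0.82 for Slc11a2, 0.56 for Slc40a1 and 0.22 for Fth1. It was -0.70 for Heph, -0.15 for Aco1, -0.13 for Tfrc and -0.09 for Ireb2. A difference of at least the size seen for Ftl1, in either direction, was passed by 6.95% of genes, that of Cp by 10.8%, that of Slc11a2 by 18.2%, that of Heph by 24.9% and that of Slc40a1 by 35.2%. The differences of Fth1, Aco1, Tfrc and Ireb2 were passed by 72.3%, 81.3%, 83.2% and 88.5% of genes. It is not stated whether the tables were normalized together. Both sets of 24M libraries are also set against the same 2M libraries, so these differences carry no test.

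Ratios between members within a library do not depend on its scaling. The ratio of Tfrc to Fth1, an uptake transcript to a storage transcript, was 0.00816 and 0.0102 in 24M_1 and 24M_2, 0.00756 and 0.00599 in 24M_3 and 24M_4, and 0.00937 and 0.00791 in 2M. The ages overlapped in the tested table, and both libraries of the separate table were below 2M. Fth1 to Ftl1 was 9.84 and 10.7 in 24M_1 and 24M_2, 3.48 and 4.81 in 24M_3 and 24M_4, and 7.23 and 8.70 in 2M. This ratio of ferritin chains was higher than in 2M in the tested table and lower than in 2M in the separate table. Aco1 to Ireb2 was 4.85 and 4.08 in 24M_1 and 24M_2, 4.60 and 5.07 in 24M_3 and 24M_4, and 4.79 and 5.23 in 2M, with overlap.

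**Figure D3:**
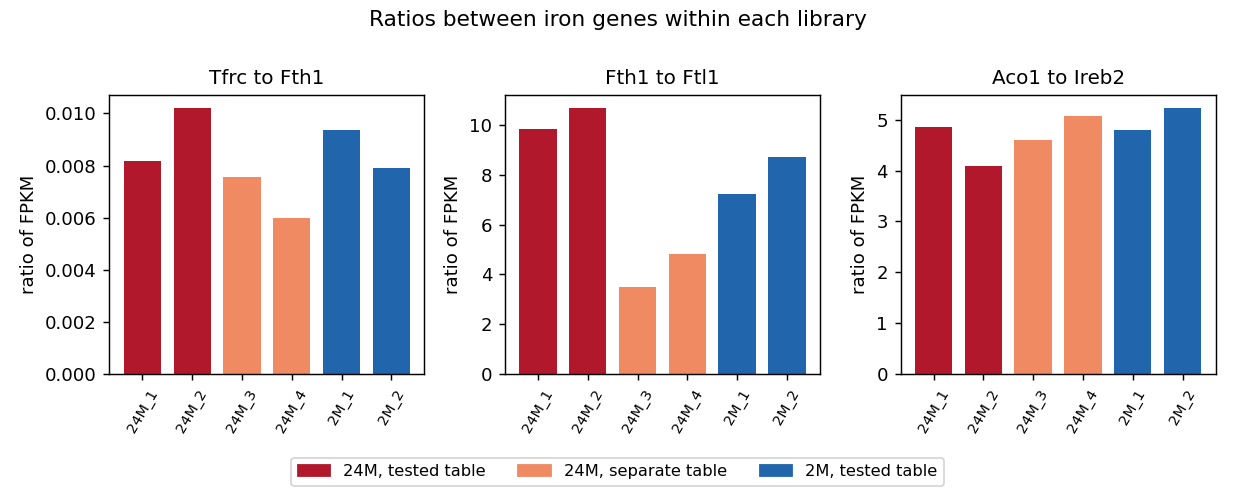
Bars give the ratio of FPKM between 2 iron genes within each library, from 0, with 24M libraries of the tested table in dark red, 24M libraries of the separate table in orange and 2M libraries in blue. Fth1 to Ftl1 is highest in 24M_1 and 24M_2, at 9.84 and 10.7, and lowest in 24M_3 and 24M_4, at 3.48 and 4.81.

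The genes whose centred log2(FPKM + 1) lay nearest to Tfrc over the 6 libraries, by Euclidean distance among 11403 genes, were Gtf2ird2 (0.140), Smad5 (0.144) and Syp (0.149), where the median gene lay at 0.722. Nearest to Slc40a1 were Ptbp2 (0.0590), Adprm (0.112) and Zfp626 (0.125), with a median of 0.912. These distances span both tables, and genes with little variation are near each other by construction.

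Among 78 other genes of iron and heme handling, in 7 lists, 57 were tested, and 1 of them, Bmp6, was higher in 24M and none lower, against 0.761% higher and 0.813% lower over all genes tested. At an unadjusted p below 0.05 there were 8 (14.0%), against 16.9% of all genes tested, the share against which the counts at this p in the lists that follow also stand. The median log2 change was 0.02. Bmp6, a bone morphogenetic protein that induces hepcidin in liver, had 18.5 and 19.5 FPKM in 24M_1 and 24M_2, 32.2 and 18.7 in 24M_3 and 24M_4, and 13.3 and 12.8 in 2M. It was higher in all 4 24M libraries, by a log2 change of 0.51 ± 0.08 with a limma adjusted p of 0.0472. The call is at the edge: it was lost in 10 of 11 alternatives, with adjusted p of 0.0504 without the filter and 0.253 without 2M_1. In the same list of hepcidin and BMP pathway genes (10 tested, 1 higher), the inhibitory Smad7, a target of BMP and TGF-beta signals, had 8.43 and 8.81 FPKM in 24M_1 and 24M_2, 6.50 and 6.02 in 24M_3 and 24M_4, and 3.44 and 5.70 in 2M (log2 change 0.82, with a limma adjusted p of 0.165). The 2M libraries differed from each other, and without 2M_1 the change was 0.52. The BMP target Id1 had 17.2 and 13.5 FPKM in 24M_1 and 24M_2, 17.7 and 10.4 in 24M_3 and 24M_4, and 5.78 and 10.8 in 2M (limma adjusted p = 0.301). Atoh8 had 0.770 and 0.882 FPKM in 24M_1 and 24M_2, 1.32 and 0.466 in 24M_3 and 24M_4, and 1.22 and 1.48 in 2M (limma adjusted p = 0.236). For both Id1 and Atoh8 the libraries of the separate table overlapped with 2M. Hepcidin itself, Hamp, was listed in the separate table only, at 0 in 24M_3 and 24M_4.

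**Figure D4:**
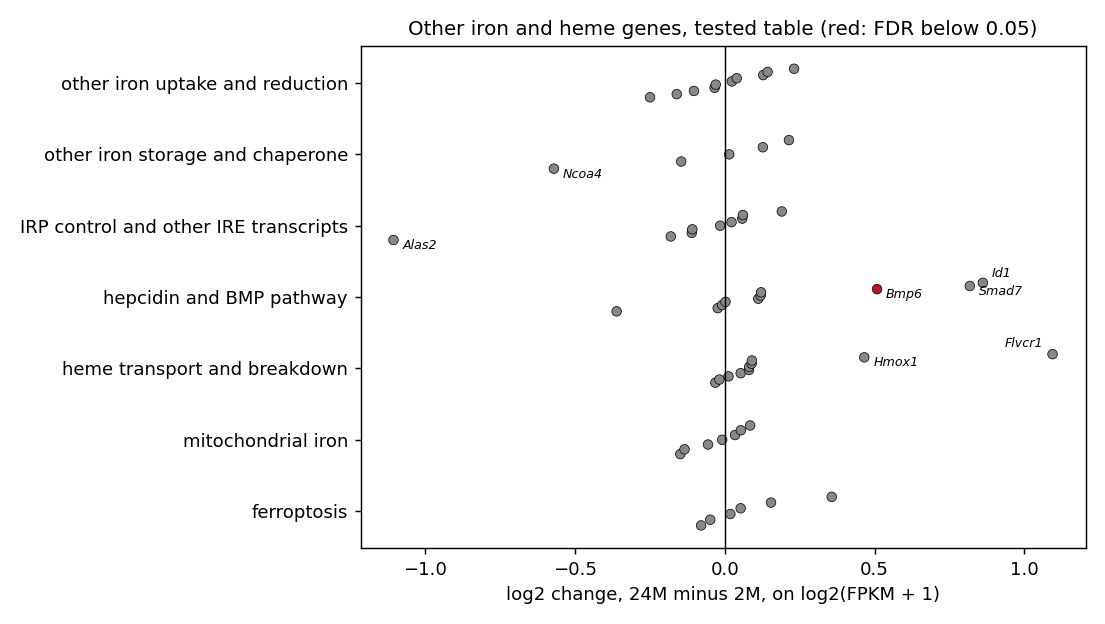
Each point is 1 gene of the other iron and heme lists, placed by its log2 change, 24M minus 2M, on the log2(FPKM + 1) scale; lists run down the page, red marks an adjusted p below 0.05 and genes beyond 0.45 in either direction are named. Bmp6, at 0.51, is the single red point; Flvcr1 lies farthest to the right, at 1.09 (0.52 without 24M_1), and Alas2, at -1.11, farthest to the left.

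Of 10 heme transport and breakdown genes, none passed and 1 had an unadjusted p below 0.05 (16.9% of all genes tested). That was Hmox1, the heme oxygenase that frees iron from heme, with 18.5 and 16.6 FPKM in 24M_1 and 24M_2, 30.5 and 26.8 in 24M_3 and 24M_4, and 11.9 and 12.9 in 2M. All 4 24M libraries lay above both 2M libraries, by a log2 change of 0.47 ± 0.09 with a limma adjusted p of 0.0812. The sum of the macrophage markers was also higher in all 4 24M libraries. It was 75.2 and 74.2 FPKM in 24M_1 and 24M_2, 848 and 122 in 24M_3 and 24M_4, and 56.2 and 65.1 in 2M. Single markers did not all follow the sum: Adgre1 and Mrc1 in 24M_4 and Csf1r in 24M_2 lay below both 2M libraries. The part of these markers in the Hmox1 value was not tested. The heme exporter Flvcr1 had 7.28 and 2.75 FPKM in 24M_1 and 24M_2, 1.80 and 4.77 in 24M_3 and 24M_4, and 1.57 and 1.65 in 2M. Its log2 change of 1.09 did not pass (limma adjusted p = 0.325). The size rests on 24M_1: it was 0.52 without that library (limma adjusted p = 0.214) and 1.67 without 24M_2 (limma adjusted p = 0.0237). In each of these fits a single library stands for 24M and is assumed to vary like the 2M pair. Abcg2, an efflux pump that also carries porphyrins, had 50.6 and 47.1 FPKM in 24M_1 and 24M_2, 51.8 and 63.8 in 24M_3 and 24M_4, and 45.9 and 46.3 in 2M (limma adjusted p = 0.594).

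Of 5 storage and chaperone genes, none passed and 2 had an unadjusted p below 0.05 (16.9% of all genes tested), Ncoa4 and Ftl1-ps1. Ncoa4, the receptor that delivers ferritin to lysosomes, had 2.43 and 2.36 FPKM in 24M_1 and 24M_2, 3.60 and 2.49 in 24M_3 and 24M_4, and 4.26 and 3.83 in 2M. It lay below both 2M libraries in all 4 24M libraries, with a log2 change of -0.57 ± 0.10 and a limma adjusted p of 0.0678. The iron chaperone Pcbp1 had 107 and 106 FPKM in 24M_1 and 24M_2, 107 and 128 in 24M_3 and 24M_4, and 98.8 and 96.0 in 2M (limma adjusted p = 0.340).

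Of 9 genes of iron regulatory protein control and other IRE transcripts, none passed and 1 had an unadjusted p below 0.05. That was Alas2, which makes heme in red cell precursors, with 0.199 and 0.481 FPKM in 24M_1 and 24M_2, 0.708 and 0.319 in 24M_3 and 24M_4, and 2.56 and 1.32 in 2M (log2 change -1.11, with a limma adjusted p of 0.117). Red blood cell markers, a list that also holds Alas2, had lower sums in 24M_1 and 24M_2 than in 2M, as given beside Ftl1, and not in 24M_3 or 24M_4. Their part in the Alas2 value was not tested. Epas1, the hypoxia factor HIF-2 alpha, had 44.0 and 38.5 FPKM in 24M_1 and 24M_2, 22.5 and 21.4 in 24M_3 and 24M_4, and 37.2 and 34.7 in 2M (limma adjusted p = 0.349). Its levels lay above 2M in the tested table and below 2M in the separate table. Pfn2, a profilin, had 9.35 and 11.7 FPKM in 24M_1 and 24M_2, 15.7 and 15.2 in 24M_3 and 24M_4, and 12.1 and 11.9 in 2M (limma adjusted p = 0.493). It lay below 2M in the tested table and above 2M in the separate table.

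None of 10 other uptake and reduction genes passed, and none had an unadjusted p below 0.05. The metal transporter Slc39a8 had 13.0 and 13.6 FPKM in 24M_1 and 24M_2, 7.39 and 8.91 in 24M_3 and 24M_4, and 15.4 and 14.6 in 2M (limma adjusted p = 0.372). Transferrin itself, Trf, had 5.25 and 3.87 FPKM in 24M_1 and 24M_2, 9.69 and 5.33 in 24M_3 and 24M_4, and 6.10 and 5.06 in 2M (limma adjusted p = 0.480). Cubn, which takes up filtered transferrin, had 30.9 and 27.2 FPKM in 24M_1 and 24M_2, 30.6 and 28.04 in 24M_3 and 24M_4, and 27.4 and 25.0 in 2M (limma adjusted p = 0.489). None of 7 mitochondrial iron genes passed or had an unadjusted p below 0.05. The mitochondrial iron importer Slc25a28 had 17.4 and 18.7 FPKM in 24M_1 and 24M_2, 27.8 and 25.1 in 24M_3 and 24M_4, and 19.9 and 20.4 in 2M (limma adjusted p = 0.391). Abcb10 and Sfxn1 had adjusted p of 0.476 and 0.736.

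Of 6 ferroptosis genes, which govern iron-driven lipid peroxidation, none passed and 1 had an unadjusted p below 0.05. That was Nfe2l2, the antioxidant regulator NRF2, with 43.8 and 44.4 FPKM in 24M_1 and 24M_2, 38.4 and 30.5 in 24M_3 and 24M_4, and 33.5 and 34.9 in 2M (log2 change 0.36 ± 0.06, with a limma adjusted p of 0.0671). In the separate table, Nfe2l2 lay above both 2M libraries in 24M_3 and below both in 24M_4. The amino acid transporter chain Slc3a2 had 41.9 and 39.4 FPKM in 24M_1 and 24M_2, 45.6 and 31.9 in 24M_3 and 24M_4, on either side of 2M, and 36.4 and 36.5 in 2M (limma adjusted p = 0.321). The phospholipid acyltransferase Lpcat3 had 9.60 and 9.76 FPKM in 24M_1 and 24M_2, 20.3 and 21.5 in 24M_3 and 24M_4, and 9.89 and 10.7 in 2M (limma adjusted p = 0.682). Its levels lay below both 2M libraries in the tested table and above both in the separate table.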

How the data were processed

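The authors deposited 2 tables whose values are FPKM, per the file headers. The submitters' processing notes name mm10 as the build and, without saying what each did, DESeq2 1.20.0, featureCounts 1.5.0-p3 and HISAT2 2.0.5. The step that made the FPKM is not stated there. The first table holds no gene whose larger age mean is under 0.50 FPKM. Whole reads could not be recovered from low values, as at most 8.8% of the 500 lowest genes lay within 1% of a common step, so depth is unknown. Symbols were matched by Ensembl ID, and 18 and 27 IDs had none. Change with age was fitted with limma 3.58.1 (R 4.3.3) to log2(FPKM + 1) of 24M_1, 24M_2, 2M_1 and 2M_2. The 11437 genes that reached 1 FPKM in 2 or more libraries were kept. The fit used an intensity trend, robust variance and two-sided tests with a Benjamini-Hochberg FDR below 0.05. It was also run on simulated data, and that outcome is not reported here. The simulated log2 changes were 1 or 2 in size, larger than those of the 9 members. Log2 changes understate the change of low genes. The members, lists and tests were chosen with earlier results of these data known. Named genes are the 9 members, list genes past the threshold, up to 3 more per list by smallest p, and the 3 genes nearest to Tfrc, Fth1 and Slc40a1. Those of Fth1 are not reported here. The rule also took the leading gene of each cell type list, and sums over the list are given in its place. Of the cell type markers, those lists are given whose level moved beside a result. Transcripts and coordinates are those of GENCODE vM21 (GRCm38).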

Additional observations from a re-analysis of the deposited data

Results flagged for a closer look

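Among the 4 libraries labelled 24M, a library stood far from the other 3 for 5 of 34 values examined. The rule flags about 1 in 20 where all 4 values vary alike. That rate is no measure here, because the libraries come from 2 separately made tables. Bmp6, Ncoa4 and Pcbp1 were also named by threshold or small p, which favours a narrow spread in 24M_1 and 24M_2. Cp was at 21.29 FPKM in 24M_3, where the other 24M libraries lay between 6.84 and 7.43. Tfrc was at 24.49 FPKM in 24M_2, above 17.3 to 18.1 in the others. Bmp6 was at 32.2 FPKM in 24M_3, Ncoa4 at 3.604 FPKM in 24M_3 and Pcbp1 at 128.5 FPKM in 24M_4, each the highest of its 4.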

How the results depend on the processing

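None of the 9 iron genes passed under any of the 11 alternatives. Heph and Slc40a1 could not be tested at a mean of at least 5 FPKM. Of 97 member values, 4 turned their direction, and Fth1 came to 0.0000 after quantile normalization. The 4 that turned came with a library left out, where Tfrc ran from -0.0847 to 0.335, Fth1 from -0.0122 to 0.106 and Slc40a1, which turned in 2 fits, from -0.0902 to 0.173. The median log2 change of the members, -0.12, ran from -0.16 to -0.0019 with a library left out. Over all genes, 87 higher and 93 lower became 53 and 55 without trend and robust variance. With a library left out, higher calls ran from 0 to 36 and lower calls from 0 to 91; by limma none passed without 2M_1 or without 2M_2. Bmp6, the single wider gene called, was lost (0 called) on the TPM scale, after quantile normalization, with a pseudocount of 0.1, without the filter, without trend and robust variance and with the replicate block; with a library left out, 0 to 1 wider genes passed, the 1 being Flvcr1 in the fit where 24M_1 was the lone 24M library, assumed to vary like the 2M pair. With the replicate number as a block, 25 genes were higher and 18 lower; the labels do not pair the libraries, and the deviations of equal-numbered libraries correlated at -0.059. The cause of these shifts was not tested.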
